A study of Mus musculus with 9 samples.

Results

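The genes described here are the Wnt ligands, their Frizzled receptors and the secreted inhibitors of the Sfrp and Dkk families in RNA of mouse lung cells. They were taken by gene symbol and biotype alone: every protein-coding gene named Wnt, Fzd, Sfrp or Dkk followed by its number. This gave 37 of the 55851 genes in the deposited table, made up of 19 ligands, 10 receptors, 4 Sfrp genes and 4 Dkk genes. The study sequenced total RNA of total lung cells taken from female mice of strain C57BL/6J and compared 3 groups with 3 libraries each, to ask how loss of DJ-1, the product of Park7 that protects cells against oxidative stress, alters the lung after challenge with ovalbumin, an allergen used to provoke asthma-like airway inflammation. The DJ-1 KO OVA group held DJ1_KO_OVA_263, DJ1_KO_OVA_266 and DJ1_KO_OVA_267 from DJ-1 knockout mice after ovalbumin challenge. The WT OVA group held libraries 5, 6 and 9 from wild-type mice after the same challenge, and the WT PBS group held libraries 1, 2 and 3 from wild-type mice after challenge with phosphate-buffered saline. All libraries share the sex, the strain name and a time label of 7 weeks, and the labels say neither how the knockout allele was made nor what the weeks count. There was no knockout group challenged with saline, so that genotype and challenge cannot be told apart where DJ-1 KO OVA is set against WT PBS. Whether each library is a separate animal is not stated, so the p-values measure the spread between these libraries, which may be technical.

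Wnt proteins are lipid-modified signals that act over short distances. They bind the extracellular cysteine-rich domain of Frizzled receptors, and with the co-receptors Lrp5 or Lrp6 they stop the destruction of β-catenin, which then works with TCF/LEF factors on target genes. Other Wnts act through Frizzled receptors without β-catenin on cell polarity and movement. Sfrp proteins carry a domain related to that of Frizzled and bind Wnts outside the cell, whereas Dkk proteins bind the Lrp co-receptors. In the mouse lung, Wnt signals specify the organ in the embryo and later take part in maintaining and renewing alveolar and airway epithelium.

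Values are FPKM, that is reads per gene length and library size, so that levels of different genes can be set side by side. Reads per gene, recovered from the FPKM values, summed to 20812192 to 29080130 in a library. Park7 had 3.96, 7.29 and 3.97 FPKM in the DJ-1 KO OVA libraries, against 57.9, 53.1 and 60.5 FPKM in the WT OVA libraries and 49.6, 53.8 and 36.7 FPKM in the WT PBS libraries, so the knockout libraries were low in the targeted gene. The difference in log2(FPKM + 0.5) between DJ-1 KO OVA and WT OVA was -3.42 (SE 0.25, adjusted p = 0.00019). DJ1_KO_OVA_263 stood apart from the other 8: the summed level of 5 immature T cell genes, a list chosen after the values were seen, was 220 FPKM there, and it lay between 1.63 and 6.46 FPKM elsewhere. WT OVA library 6 had a summed level of 5 goblet cell genes of 69.1 FPKM, against 567 and 505 FPKM in WT OVA libraries 5 and 9. Most of it was Clca1, with 56.4 FPKM in library 6 and 543 and 487 FPKM in libraries 5 and 9. Libraries also differed in the balance of long and short genes, measured as the median log2 deviation of genes of at least 4000 bases minus that of genes of at most 1500 bases. This balance was 0.87, -0.05 and 0.71 in the DJ-1 KO OVA libraries, -0.55, -0.29 and -0.62 in the WT OVA libraries and -0.09, -0.43 and 0.36 in the WT PBS libraries.

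A total of 25 members had a mean of at least 0.2 FPKM over the 9 libraries and were tested: 13 ligands, 7 receptors, 3 Sfrp genes and 2 Dkk genes. Wnt10a, with a mean of 0.234 FPKM, lay just inside this limit and Fzd9, with 0.137 FPKM, just outside it. Sfrp1 and Sfrp4 rose in DJ-1 KO OVA relative to WT OVA, 2.19-fold and 2.53-fold on the log2(FPKM + 0.5) scale, and Wnt6 fell 2.60-fold. These 3 of the 25 tested members passed the test, a limma fit over 17716 genes with Benjamini-Hochberg adjustment. Of all genes tested, 5.93% passed with a higher level in DJ-1 KO OVA and 8.24% with a lower one, 14.2% in either direction, so the share of members that passed was near that of all genes. Among the tested members 12 differences were positive and 13 negative, and 50% of all genes had a positive one. In bulk RNA a change in the number of cells that make a gene and a change in RNA per cell cannot be told apart.

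**Figure D1:**
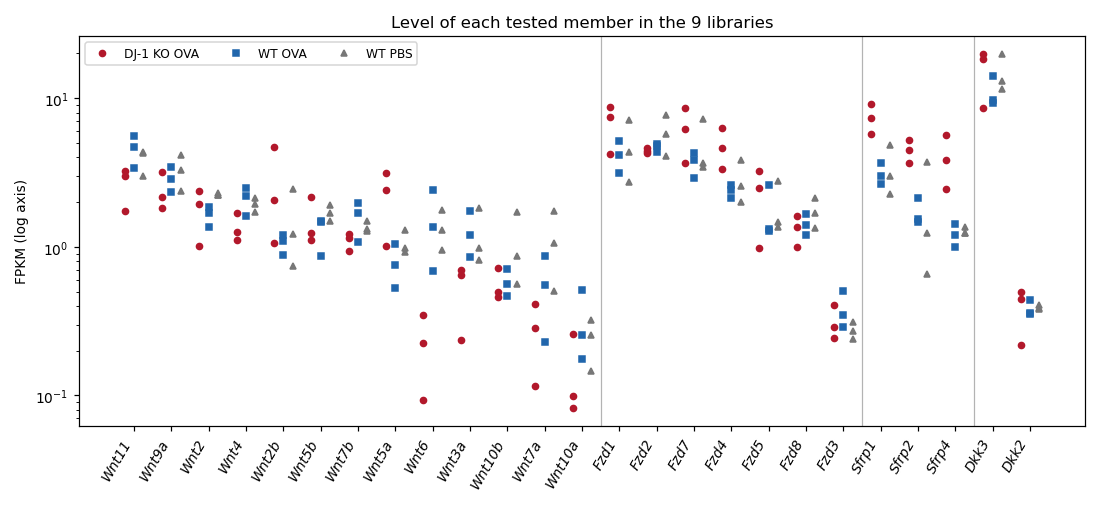
Level of each of the 25 tested members in the 9 libraries, in FPKM on a log axis, with ligands, receptors, Sfrp and Dkk genes from left to right, each ordered by mean level. Circles are DJ-1 KO OVA, squares WT OVA and triangles WT PBS libraries; Dkk3 lies highest, with 8.53 to 19.9 FPKM, and the Wnt6 circles, 0.0928 to 0.348 FPKM, lie below its other symbols.

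Promoter sequences of 25 of the 37 members were in the RefSeq table for GRCm38.p6, as 28 sequences. The 250 bases before the start of Wnt6, of Sfrp2 and of the first listed Wnt11 promoter are shown. Wnt6 is the ligand that fell, Sfrp2 is the only tested Sfrp gene with a promoter in the table, and Wnt11 is among the members with a TCF/LEF-like string. They lie at chr1:74771642-74771891, chr3:83766071-83766320 and chr7:98834862-98835111, all on the plus strand. Capitals mark the match to the string CTTTGAA, the string CTTTGAT, the string CTTTGTA or the string CTTTGTT on either strand.
Wnt6: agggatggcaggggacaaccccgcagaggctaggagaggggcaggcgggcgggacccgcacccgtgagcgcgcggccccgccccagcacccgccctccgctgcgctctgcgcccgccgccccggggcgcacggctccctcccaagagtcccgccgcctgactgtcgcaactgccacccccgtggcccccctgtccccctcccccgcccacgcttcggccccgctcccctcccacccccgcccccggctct
Sfrp2: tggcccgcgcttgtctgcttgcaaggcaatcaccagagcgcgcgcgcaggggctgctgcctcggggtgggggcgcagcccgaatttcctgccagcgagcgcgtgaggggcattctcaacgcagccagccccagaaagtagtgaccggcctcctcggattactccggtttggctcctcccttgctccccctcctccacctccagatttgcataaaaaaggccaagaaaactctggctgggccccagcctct
Wnt11: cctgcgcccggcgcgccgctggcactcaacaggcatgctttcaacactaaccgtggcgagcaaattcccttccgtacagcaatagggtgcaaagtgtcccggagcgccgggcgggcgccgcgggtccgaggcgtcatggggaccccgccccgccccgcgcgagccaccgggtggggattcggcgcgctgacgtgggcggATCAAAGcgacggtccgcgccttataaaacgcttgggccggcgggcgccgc
The Wnt6 and Sfrp2 windows hold none of these strings, and Wnt11 holds ATCAAAG, the reverse complement of CTTTGAT, beginning 51 bases before the start. The 4 strings differ from each other only in their last letters, so a position matches at most 1 of them on a strand. The strings occur in 4 of the 28 member promoters (14.3%), those of Dkk1, Fzd7, Wnt5b and the Wnt11 promoter shown, and in 14.8% of the 32851 promoters of the table. A second Wnt11 promoter, at chr7:98838595-98838844, holds none. Member promoters were rich in G and C, with a median GC content of 69.4% and 22 CpG dinucleotides, against 52.4% and 6 over all promoters of the same length. The Wnt6 window had 79.6% GC, that of Sfrp2 63.6% and that of Wnt11 70.8%. A matching string is a description of the letters and not a binding site.

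Among the secreted inhibitors, 2 of the 3 tested Sfrp genes rose in DJ-1 KO OVA relative to WT OVA and Sfrp2 did not pass. Sfrp1 (ENSMUSG00000031548, chr8:23411502-23449632, plus strand, GRCm38), a secreted Wnt-binding protein, had 7.39, 5.75 and 9.18 FPKM in the DJ-1 KO OVA libraries, against 2.65, 2.97 and 3.67 FPKM in the WT OVA libraries and 3.02, 2.25 and 4.88 FPKM in the WT PBS libraries. Every knockout library lay above every WT OVA library, and also above the WT PBS libraries. The difference between DJ-1 KO OVA and WT OVA was 1.13 (SE 0.27, adjusted p = 0.0267). Leaving out a single library ended the call for DJ1_KO_OVA_263 (adjusted p = 0.0568), DJ1_KO_OVA_267 (0.11) and WT OVA libraries 5, 6 and 9 (0.0854, 0.0763 and 0.0625).

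Sfrp4 (ENSMUSG00000021319, chr13:19623104-19632994, plus strand), whose loss in humans causes a bone disease with thin cortex, had 3.85, 2.46 and 5.64 FPKM in the DJ-1 KO OVA libraries, against 1.42, 1.0 and 1.19 FPKM in the WT OVA libraries and 1.36, 1.25 and 1.25 FPKM in the WT PBS libraries. The WT libraries of both groups lay close together between 1.00 and 1.42 FPKM, and the lowest knockout library, DJ1_KO_OVA_266, stood at 2.46 FPKM. Between DJ-1 KO OVA and WT OVA it differed by 1.34 (SE 0.25, adjusted p = 0.0143). Without DJ1_KO_OVA_267 the limma adjusted p was 0.055, without WT OVA library 6 it was 0.0561 and without WT OVA library 9 it was 0.0508. WT PBS library 3, which shared the positive balance of long genes with DJ1_KO_OVA_263 and DJ1_KO_OVA_267, had 1.25 FPKM of Sfrp4, like the other WT PBS libraries, and was the highest WT PBS library for Sfrp1, with 4.88 FPKM, and for Sfrp2, with 3.75 FPKM. With the trend of gene length removed, an alternative added after the data were seen, Sfrp1 and Sfrp4 kept their calls.

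Sfrp2 (ENSMUSG00000027996, chr3:83766321-83774316, plus strand), of the same subfamily as Sfrp1, measured 4.47, 3.64 and 5.22 FPKM in the DJ-1 KO OVA libraries, against 1.55, 2.13 and 1.46 FPKM in the WT OVA libraries and 1.24, 0.656 and 3.75 FPKM in the WT PBS libraries. All knockout libraries were above all WT OVA libraries, but WT PBS library 3 reached into the knockout range. Its difference did not pass, at 1.16 (SE 0.39, adjusted p = 0.0688), with a 95% interval of 0.29 to 2.03. It passed in 4 of 20 alternatives, among them equal FPKM sums with adjusted p = 0.0307 and a fit on the 2 groups alone with 0.0311. An antisense gene, Gm26771, overlaps 464 bases of Sfrp2, and the sources used here do not say whether reads were counted by strand. The summed level of the 4 Sfrp genes was 15.7, 11.9 and 20.1 FPKM in the DJ-1 KO OVA libraries, against 5.64, 6.13 and 6.33 FPKM in the WT OVA libraries and 5.76, 4.31 and 9.89 FPKM in the WT PBS libraries. The 3 tested Sfrp genes had a median difference of 1.16 between DJ-1 KO OVA and WT OVA, and that of all genes was 0.

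**Figure D2:**
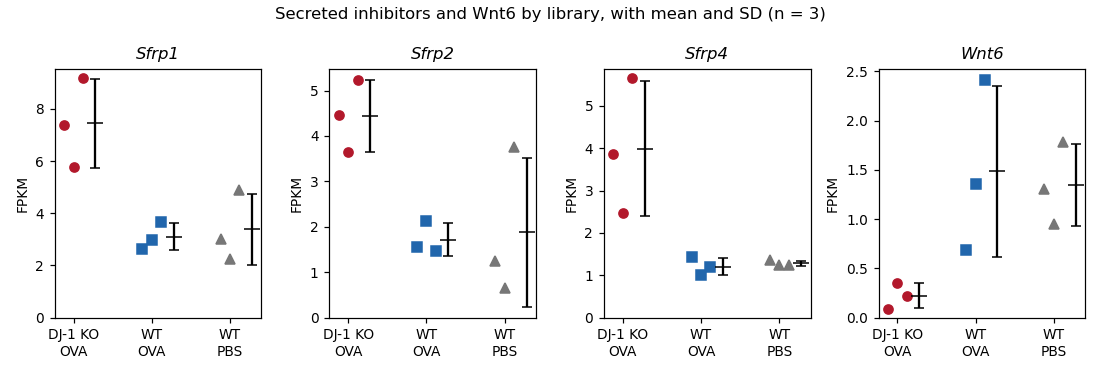
FPKM of Sfrp1, Sfrp2, Sfrp4 and Wnt6 in each library, with DJ-1 KO OVA on the left, WT OVA in the middle and WT PBS on the right; black bars give the mean and SD (n = 3 each). The knockout points of Sfrp1 (5.75 to 9.18 FPKM) and Sfrp4 (2.46 to 5.64 FPKM) lie above both WT groups, and those of Wnt6 (0.0928 to 0.348 FPKM) lie below them.

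Fibroblast markers were examined beside the Sfrp genes. Of 10 such markers, the collagen genes Col1a1, Col1a2 and Col3a1 rose in DJ-1 KO OVA relative to WT OVA and 7 did not pass. The differences of the list were positive for 6 and negative for 4, with a median of 0.10. Of those that did not pass, Dcn and Dpt had every knockout library below every WT OVA library, and Dcn averaged 73.8 FPKM in DJ-1 KO OVA and 116 FPKM in WT OVA, and Dpt 98.4 FPKM in DJ-1 KO OVA and 141 FPKM in WT OVA. The summed level of the list was 507 to 991 FPKM in DJ-1 KO OVA, 437 to 497 FPKM in WT OVA and 497 to 514 FPKM in WT PBS, with no marker at 0. Of 7 smooth muscle and pericyte markers 1 rose and 6 did not pass, with sums of 22.7 to 34.1 FPKM in DJ-1 KO OVA, 21.1 to 27.0 FPKM in WT OVA and 32.4 to 34.0 FPKM in WT PBS. Over all genes tested, 5.93% passed with a higher level in DJ-1 KO OVA than in WT OVA and 8.24% with a lower one. Every knockout library lay above every WT OVA library for 18.4% of all genes, and below for 18.8%. The part of these cells in the Sfrp differences was not tested.

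Of the 2 tested Dkk genes 0 passed in limma or limma-voom and 0 had an unadjusted p below 0.05. Between DJ-1 KO OVA and WT OVA, 6234 of all 17716 genes had an unadjusted limma p below 0.05. Dkk3, a divergent member of the family that does not act on Lrp5 and Lrp6 as Dkk1 does, was the member with the highest mean level in each group. It had 19.9, 8.54 and 18.4 FPKM in the DJ-1 KO OVA libraries, against 9.75, 14.1 and 9.35 FPKM in the WT OVA libraries and 13.0, 11.5 and 19.8 FPKM in the WT PBS libraries. DJ1_KO_OVA_263, DJ1_KO_OVA_267 and WT PBS library 3 were high, DJ1_KO_OVA_266 was the lowest of all, and the groups overlapped. DJ-1 KO OVA minus WT OVA gave a difference of 0.41 (SE 0.33, adjusted p = 0.388). Without DJ1_KO_OVA_266 it was 0.79 with adjusted p = 0.0482. Dkk2, a ligand of Lrp6, overlapped between the groups, with 0.220 to 0.497 FPKM in DJ-1 KO OVA, 0.352 to 0.436 FPKM in WT OVA and 0.379 to 0.408 FPKM in WT PBS. Dkk1, the best studied inhibitor of the family, had 0 reads in all 9 libraries, which allows a level of up to 0.0359 to 0.0644 FPKM depending on the library (3 reads, counting error only), and Dkk4 had 1 read in a single library.

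Among the 13 tested ligands, Wnt6 fell in DJ-1 KO OVA relative to WT OVA and 12 did not pass. Wnt6 (ENSMUSG00000033227, chr1:74771892-74785322, plus strand) encodes a ligand of the β-catenin branch made by epithelia. It had 0.0928, 0.348 and 0.224 FPKM in the DJ-1 KO OVA libraries, against 0.689, 1.35 and 2.41 FPKM in the WT OVA libraries and 1.3, 0.956 and 1.78 FPKM in the WT PBS libraries. All knockout libraries were below all WT libraries, whether challenged or not. These values rest on 7, 18 and 12 reads in the DJ-1 KO OVA libraries, against 29, 68 and 104 reads in the WT OVA libraries and 61, 43 and 120 reads in the WT PBS libraries. The difference between DJ-1 KO OVA and WT OVA was -1.38 (SE 0.32, adjusted p = 0.0245), and the ratio of the mean FPKM was 0.149. The call was lost with the trend of gene length removed (adjusted p = 0.0594), with no filter on low genes (0.0719) and without DJ1_KO_OVA_263, DJ1_KO_OVA_267 or WT OVA library 6 or 9 (0.0605, 0.0865, 0.071 and 0.078). An antisense gene, Gm29539, overlaps 2463 bases of Wnt6.

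Epithelial markers were examined beside Wnt6, and the lists differed in direction. Of 6 alveolar type 1 markers 3 fell in DJ-1 KO OVA relative to WT OVA and 3 did not pass, and the summed level of the list was 111 to 321 FPKM in DJ-1 KO OVA, 430 to 542 FPKM in WT OVA and 332 to 556 FPKM in WT PBS, with no marker at 0. Of 6 alveolar type 2 markers 1 fell and 5 did not pass, with sums of 6262 to 13390 FPKM in DJ-1 KO OVA, 32209 to 41141 FPKM in WT OVA and 24821 to 41541 FPKM in WT PBS. Most of these sums was Sftpc, which averaged 9335 FPKM in DJ-1 KO OVA and 34647 FPKM in WT OVA, where Slc34a2 averaged 216 and 212 FPKM. The 6 differences between DJ-1 KO OVA and WT OVA were all negative, from -1.98 to -0.02. Of 4 club cell markers 1 fell and of 5 ciliated cell markers 1 fell, and the other markers of both lists did not pass. Of 5 goblet cell markers 2 rose and 3 did not pass, with sums of 938 to 1844 FPKM in DJ-1 KO OVA, 69.1 to 567 FPKM in WT OVA and 9.37 to 18.9 FPKM in WT PBS. In the challenged groups most of these sums was Clca1, which averaged 1381.5 FPKM in DJ-1 KO OVA and 362 FPKM in WT OVA. The 5 differences were all positive, from 0.52 to 2.99. The 3 tested basal cell markers did not pass, and their differences were positive. Of all genes tested, 8.24% passed with a lower level and 5.93% with a higher one. The part of these cells in the Wnt6 difference was not tested.

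The ligand next to Wnt6 on the chromosome is Wnt10a, known from tooth and hair development, whose start lies 6.194 kb beyond the end of Wnt6 on the same strand. Wnt10a was low, with 0.0824, 0.257 and 0.0994 FPKM in the DJ-1 KO OVA libraries, against 0.253, 0.177 and 0.515 FPKM in the WT OVA libraries and 0.322, 0.257 and 0.145 FPKM in the WT PBS libraries. The groups overlapped, and the difference between DJ-1 KO OVA and WT OVA was -0.32 (SE 0.22, adjusted p = 0.301).

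Ligands known from the noncanonical branch did not pass. Wnt5a, which guides cell movement and the outgrowth of lung mesenchyme and airways in the embryo, had 2.42, 1.01 and 3.13 FPKM in the DJ-1 KO OVA libraries, against 0.526, 1.05 and 0.754 FPKM in the WT OVA libraries and 0.987, 0.928 and 1.29 FPKM in the WT PBS libraries. DJ1_KO_OVA_263 and DJ1_KO_OVA_267 were above every WT library, and DJ1_KO_OVA_266 lay within the WT range. Between DJ-1 KO OVA and WT OVA it differed by 1.0 (SE 0.31, adjusted p = 0.0541), just short of the threshold, and it passed in 4 of 20 alternatives, with adjusted p = 0.0385 in limma-voom on the recovered reads and 0.0047 without DJ1_KO_OVA_266. Wnt5b, its closest relative, had 2.18, 1.12 and 1.23 FPKM in the DJ-1 KO OVA libraries, against 1.47, 1.5 and 0.862 FPKM in the WT OVA libraries and 1.9, 1.49 and 1.69 FPKM in the WT PBS libraries. The groups overlapped for Wnt5b, at 0.16 (SE 0.24, adjusted p = 0.663) between DJ-1 KO OVA and WT OVA.

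Wnt11, a ligand of cell movement in the embryo, had 1.76, 2.99 and 3.23 FPKM in the DJ-1 KO OVA libraries, against 4.72, 5.59 and 3.42 FPKM in the WT OVA libraries and 4.38, 4.31 and 3.0 FPKM in the WT PBS libraries. The DJ-1 KO OVA libraries were all below the WT OVA libraries, and DJ1_KO_OVA_267 was above WT PBS library 3. DJ-1 KO OVA minus WT OVA gave a difference of -0.69 (SE 0.26, adjusted p = 0.0859) and did not pass. Wnt4, needed for kidney tubules and the female reproductive tract, had 1.7, 1.26 and 1.11 FPKM in the DJ-1 KO OVA libraries, against 2.2, 2.5 and 1.62 FPKM in the WT OVA libraries and 1.95, 1.71 and 2.13 FPKM in the WT PBS libraries. DJ1_KO_OVA_263 was just above WT OVA library 9, the other knockout libraries were below every WT library, and the difference was -0.49 (SE 0.20, adjusted p = 0.118).

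Other ligands of the β-catenin branch did not pass. Wnt3a, the ligand most used to switch the branch on in cell culture, had 0.695, 0.644 and 0.237 FPKM in the DJ-1 KO OVA libraries, against 0.849, 1.2 and 1.73 FPKM in the WT OVA libraries and 0.814, 0.988 and 1.83 FPKM in the WT PBS libraries. All knockout libraries were below all WT libraries, and the difference between DJ-1 KO OVA and WT OVA, -0.78 (SE 0.29, adjusted p = 0.0877), did not pass in any of the 19 alternatives that tested it. Wnt9a, which shapes joints, lies 16.18 kb from Wnt3a on the opposite strand and measured 3.19, 1.83 and 2.15 FPKM in the DJ-1 KO OVA libraries, against 2.35, 2.84 and 3.42 FPKM in the WT OVA libraries and 3.29, 2.37 and 4.13 FPKM in the WT PBS libraries. The 3 groups of Wnt9a overlapped, at -0.24 (SE 0.25, adjusted p = 0.512) between DJ-1 KO OVA and WT OVA.

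Wnt2, which with Wnt2b specifies the lung in the mouse embryo, had 1.93, 2.39 and 1.02 FPKM in the DJ-1 KO OVA libraries, against 1.69, 1.35 and 1.85 FPKM in the WT OVA libraries and 2.24, 2.29 and 2.24 FPKM in the WT PBS libraries. DJ1_KO_OVA_266 and DJ1_KO_OVA_267 were the highest and the lowest of all, and the difference between DJ-1 KO OVA and WT OVA was 0.05 (SE 0.24, adjusted p = 0.894). Wnt2b had 4.66, 1.07 and 2.05 FPKM in the DJ-1 KO OVA libraries, against 1.2, 1.09 and 0.884 FPKM in the WT OVA libraries and 1.21, 0.742 and 2.45 FPKM in the WT PBS libraries. It was highest in DJ1_KO_OVA_263, the library with immature T cell genes, and the groups overlapped at 0.82 (SE 0.42, adjusted p = 0.183). The part of those cells in the Wnt2b level was not tested. Without DJ1_KO_OVA_266 the Wnt2b difference was 1.22 with adjusted p = 0.0385.

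Wnt7b, made by the airway epithelium of the embryo and needed for growth of the lung mesenchyme, had 1.15, 1.23 and 0.943 FPKM in the DJ-1 KO OVA libraries, against 1.7, 1.97 and 1.08 FPKM in the WT OVA libraries and 1.27, 1.48 and 1.33 FPKM in the WT PBS libraries. Its difference between DJ-1 KO OVA and WT OVA was -0.35 (SE 0.21, adjusted p = 0.241), with overlap between WT OVA library 9 and the knockout libraries. Wnt7a, known from patterning of the limb, had 0.284, 0.414 and 0.116 FPKM in the DJ-1 KO OVA libraries, against 0.23, 0.55 and 0.866 FPKM in the WT OVA libraries and 0.502, 1.06 and 1.74 FPKM in the WT PBS libraries. Its DJ-1 KO OVA libraries overlapped those of WT OVA and lay below those of WT PBS. Wnt10b, which promotes bone formation, had 0.718, 0.461 and 0.493 FPKM in the DJ-1 KO OVA libraries, against 0.705, 0.565 and 0.463 FPKM in the WT OVA libraries and 0.564, 0.874 and 1.71 FPKM in the WT PBS libraries. WT PBS library 3 was the highest for both Wnt7a and Wnt10b, and the differences between DJ-1 KO OVA and WT OVA were -0.42 (SE 0.32, adjusted p = 0.376) for Wnt7a and -0.03 (SE 0.26, adjusted p = 0.946) for Wnt10b.

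Over the 13 tested ligands the median difference between DJ-1 KO OVA and WT OVA was -0.32, with 4 positive and 9 negative. With libraries rescaled to equal FPKM sums, which shifts the median of all genes by 0.46, it was 0.10 with 7 positive and 6 negative, so the direction of the ligands as a group depends on that scaling. The summed FPKM of all 19 ligands was 15.4 to 21.4 in the DJ-1 KO OVA libraries, against 18.8 to 21.8 in the WT OVA libraries and 19.5 to 25.7 in the WT PBS libraries. These sums overlapped between the groups.

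Of the 7 tested receptors 0 passed in limma, 1 had an unadjusted p below 0.05 and 1 passed in limma-voom, Fzd4 in both. The unadjusted limma p was below 0.05 for 6234 of all 17716 genes in this comparison. Fzd4, which also binds Norrin and is required for retinal vessels, had 4.63, 3.37 and 6.33 FPKM in the DJ-1 KO OVA libraries, against 2.15, 2.62 and 2.41 FPKM in the WT OVA libraries and 2.56, 2.02 and 3.87 FPKM in the WT PBS libraries. All knockout libraries were above all WT OVA libraries, and WT PBS library 3 reached into the knockout range. The difference between DJ-1 KO OVA and WT OVA was 0.83 (SE 0.26, adjusted p = 0.0564), and it passed in 5 of 20 alternatives, with adjusted p = 0.0415 in limma-voom and 0.0153 without DJ1_KO_OVA_266. Fzd1 and Fzd7, close relatives within the family, followed the same libraries. Fzd1 had 7.43, 4.21 and 8.76 FPKM in the DJ-1 KO OVA libraries, against 3.12, 5.14 and 4.16 FPKM in the WT OVA libraries and 4.33, 2.72 and 7.16 FPKM in the WT PBS libraries. Fzd7 had 6.25, 3.68 and 8.66 FPKM in the DJ-1 KO OVA libraries, against 2.9, 4.29 and 3.86 FPKM in the WT OVA libraries and 3.67, 3.43 and 7.3 FPKM in the WT PBS libraries. In both, DJ1_KO_OVA_263, DJ1_KO_OVA_267 and WT PBS library 3 were the 3 highest, and DJ1_KO_OVA_266 lay within the WT OVA range. The differences between DJ-1 KO OVA and WT OVA were 0.62 (SE 0.35, adjusted p = 0.221) for Fzd1 and 0.62 (SE 0.33, adjusted p = 0.205) for Fzd7.

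**Figure D3:**
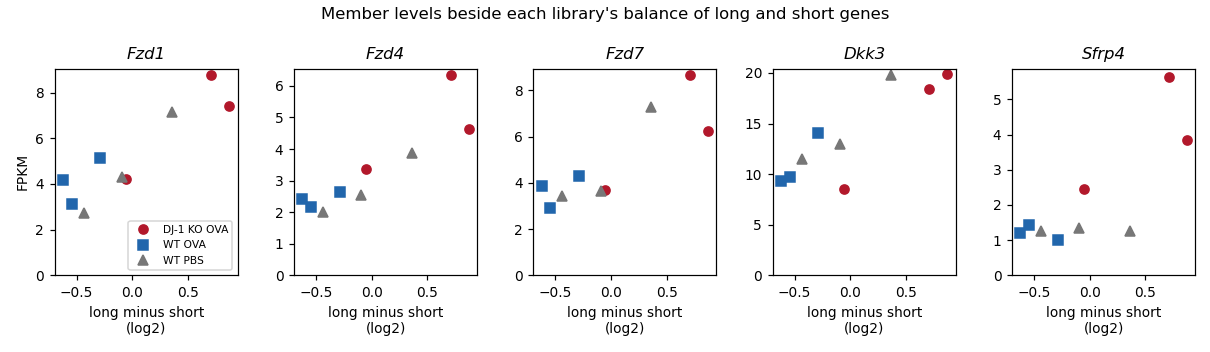
FPKM of Fzd1, Fzd4, Fzd7, Dkk3 and Sfrp4 (vertical axes) against the balance of long and short genes in each library (horizontal axes, log2), 1 point per library; circles are DJ-1 KO OVA, squares WT OVA and triangles WT PBS. The receptors and Dkk3 are high in DJ1_KO_OVA_263, in DJ1_KO_OVA_267 and in WT PBS library 3, whose balances are 0.87, 0.71 and 0.36, and Sfrp4 is high in the first 2 of these and 1.25 FPKM in WT PBS library 3.

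The libraries in which Fzd1, Fzd4, Fzd7 and Dkk3 were high were those with a balance toward long genes. With the trend of gene length removed, the median difference of the 7 receptors between DJ-1 KO OVA and WT OVA was -0.03 with 3 positive and 4 negative, against 0.25 with 4 positive and 3 negative on the deposited values. It was 0.75 with 7 positive after rescaling to equal FPKM sums. Over all genes the median was 0.46 with 75.8% positive after that rescaling, and 0.07 with 55.6% positive without the length trend. The direction of the receptors as a group thus depends on the scaling, which also shifts all genes. Fzd2, the third receptor of the Fzd1 and Fzd7 subgroup, had 4.28, 4.43 and 4.6 FPKM in the DJ-1 KO OVA libraries, against 4.34, 4.93 and 4.79 FPKM in the WT OVA libraries and 5.79, 4.1 and 7.66 FPKM in the WT PBS libraries. It was even across the challenged groups, at -0.07 (SE 0.21, adjusted p = 0.837) with a 95% interval of -0.55 to 0.41. Fzd5, a receptor in eye and gut development, had 3.24, 0.986 and 2.51 FPKM in the DJ-1 KO OVA libraries, against 1.28, 2.61 and 1.31 FPKM in the WT OVA libraries and 1.47, 1.36 and 2.75 FPKM in the WT PBS libraries. Its relative Fzd8 had 1.61, 0.999 and 1.36 FPKM in the DJ-1 KO OVA libraries, against 1.41, 1.67 and 1.2 FPKM in the WT OVA libraries and 1.69, 1.34 and 2.12 FPKM in the WT PBS libraries. The groups overlapped for both, at 0.25 (SE 0.37, adjusted p = 0.663) for Fzd5 and -0.09 (SE 0.21, adjusted p = 0.793) for Fzd8 between DJ-1 KO OVA and WT OVA. Fzd3, which directs axons and hair orientation, was low at 0.245 to 0.406 FPKM in DJ-1 KO OVA, 0.289 to 0.504 FPKM in WT OVA and 0.240 to 0.311 FPKM in WT PBS.

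Levels per gene length can be ranked within a group. Dkk3 came first of the 37 members in each group by mean FPKM. In DJ-1 KO OVA it was followed by Sfrp1 with 7.44 ± 1.72 FPKM (SD, n = 3), Fzd1 with 6.8 ± 2.34 and Fzd7 with 6.2 ± 2.49, which do not differ beyond their spread. In WT OVA it was followed by Fzd2 with 4.69 ± 0.31 FPKM, Wnt11 with 4.58 ± 1.09, Fzd1 with 4.14 ± 1.01 and Fzd7 with 3.68 ± 0.71, where each overlapped its neighbour in the order and every Fzd2 library lay above every Fzd7 library, and Sfrp1 with 3.1 ± 0.53 came at rank 6. In WT PBS the order was Fzd2 with 5.85 ± 1.78 FPKM, Fzd7 with 4.8 ± 2.17, Fzd1 with 4.74 ± 2.25 and Wnt11 with 3.89 ± 0.78, and Sfrp1 with 3.38 ± 1.35 was again at rank 6. Members at 1 FPKM or more in all 9 libraries numbered 11, and 22 reached a mean of 1 FPKM in at least 1 group.

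In comparison of all libraries of a member, 4 tested members were higher in every DJ-1 KO OVA library than in any WT OVA library (Fzd4, Sfrp1, Sfrp2 and Sfrp4), and 3 were lower (Wnt3a, Wnt6 and Wnt11). Of all genes tested, 18.4% and 18.8% were separated in this way. With 3 libraries a group, the smallest two-sided p of an exact permutation test is 0.1, and the calls rest on the model fitted across all genes.

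**Figure D4:**
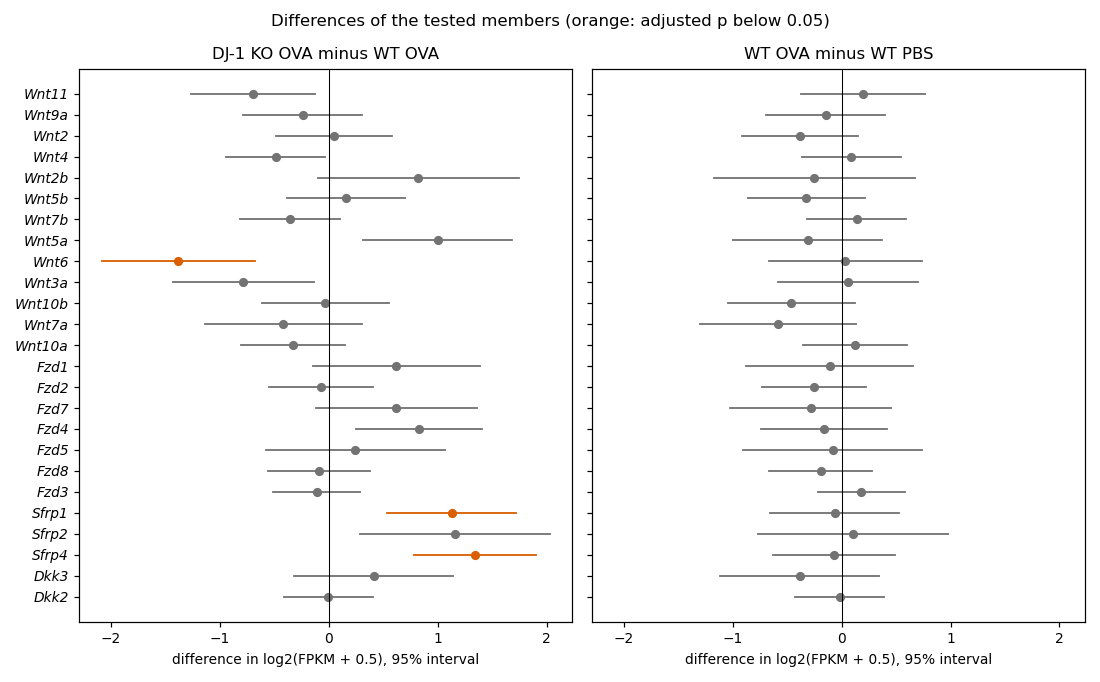
Differences in log2(FPKM + 0.5) of the 25 tested members with 95% intervals (horizontal axis), DJ-1 KO OVA minus WT OVA on the left and WT OVA minus WT PBS on the right; orange marks an adjusted p below 0.05. Sfrp1 (1.13), Sfrp4 (1.34) and Wnt6 (-1.38) are marked on the left and no member on the right.

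Ovalbumin challenge of wild-type mice left no member past the threshold. WT OVA and WT PBS were compared over the same 25 members, and 0 passed in limma, with 0 members at an unadjusted p below 0.05 and 0 in limma-voom. Of all 17716 genes 0.00564% passed, and 1146 had an unadjusted p below 0.05. The lowest adjusted p of a member was 0.729. The 3 Sfrp genes differed by -0.07 to 0.10 with a median of -0.06, and the 95% interval was -0.66 to 0.53 for Sfrp1, -0.77 to 0.97 for Sfrp2 and -0.63 to 0.49 for Sfrp4. For Wnt6 the difference was 0.03 (SE 0.32, adjusted p = 0.982) with a 95% interval of -0.67 to 0.73. Wnt2 was the member with all WT OVA libraries below all WT PBS libraries, and no member had the opposite order, where 7.52% and 7.25% of all genes were so separated. The Wnt2 values lay between 1.35 and 1.85 FPKM in WT OVA and between 2.24 and 2.29 FPKM in WT PBS, with a difference of -0.38 (SE 0.24, adjusted p = 0.733). Of the 25 differences 8 were positive and 17 negative, against 50.5% positive over all genes, and the median was -0.11.

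Set against WT PBS, DJ-1 KO OVA showed calls in the same members. Sfrp1 rose with a difference of 1.07 (SE 0.27, adjusted p = 0.0369), Sfrp4 rose with 1.27 (SE 0.25, adjusted p = 0.0157), and Wnt6 fell with -1.35 (SE 0.32, adjusted p = 0.0287). Of all genes, 4.07% passed higher and 4.47% lower, 8.54% in either direction. This comparison shares its libraries with the other comparisons, so the agreement is not independent. Sfrp2 had a difference of 1.26 (SE 0.39, adjusted p = 0.0751) and Wnt7a one of -0.997 (SE 0.32, adjusted p = 0.0844), and neither passed. Without WT PBS library 3, the WT PBS library with a positive balance of long genes, the Sfrp2 difference was 1.79 with adjusted p = 0.00799. Every DJ-1 KO OVA library was above every WT PBS library for Sfrp1 and Sfrp4, and below for Wnt3a, Wnt4, Wnt6, Wnt7a and Wnt7b, where 12.7% and 12.9% of all genes were so separated. Leaving out 1 library ended the Sfrp1 call except without DJ1_KO_OVA_266 or WT PBS library 3 (adjusted p up to 0.145). The Sfrp4 call ended without DJ1_KO_OVA_267 and WT PBS library 1 or 2, each in turn (0.0563, 0.057 and 0.0594). The Wnt6 call ended without DJ1_KO_OVA_263, DJ1_KO_OVA_267 or any WT PBS library (up to 0.0925).

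The 12 members that were not tested were Dkk1, Dkk4, Fzd6, Fzd9, Fzd10, Sfrp5 and the ligands Wnt1, Wnt3, Wnt8a, Wnt8b, Wnt9b and Wnt16. Wnt8b had 49 reads in DJ1_KO_OVA_263 and 0 to 2 reads in the other 8 libraries. Fzd10 had 45 reads in DJ1_KO_OVA_263, 10 and 13 reads in DJ1_KO_OVA_266 and DJ1_KO_OVA_267, 1 to 3 reads in WT OVA and 2 to 13 reads in WT PBS. Library DJ1_KO_OVA_263 is the one with immature T cell genes, and the part of those cells in these reads was not tested. Fzd6 had 1 to 8 reads and Fzd9 1 to 13 reads in each library. Sfrp5, Wnt1 and Wnt16 had at most 7 reads in any library, Wnt3 13, Wnt9b 20 and Wnt8a 1.

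The rest of the pathway was described with 83 further genes in 8 lists, of which 71 were tested. Between DJ-1 KO OVA and WT OVA 4 of the 71 rose and 1 fell, beside the 5.93% and 8.24% of all genes. Of the 4, Ccn4 was tested only through its level in DJ-1 KO OVA, so its call is not independent of the filter. Ctnnb1, which encodes β-catenin itself, had 99.0, 70.3 and 109 FPKM in the DJ-1 KO OVA libraries, against 46.9, 62.5 and 47.1 FPKM in the WT OVA libraries and 50.9, 53.4 and 69.3 FPKM in the WT PBS libraries. All knockout libraries were above all WT libraries, with a difference between DJ-1 KO OVA and WT OVA of 0.81 (SE 0.24, adjusted p = 0.0471). Myc, a growth regulator and textbook target of β-catenin, had 18.8, 10.9 and 17.7 FPKM in the DJ-1 KO OVA libraries, against 8.34, 8.3 and 5.41 FPKM in the WT OVA libraries and 8.91, 5.77 and 10.3 FPKM in the WT PBS libraries. Its knockout libraries were again above all WT libraries, at 1.04 (SE 0.28, adjusted p = 0.0392).

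Ccn4, a secreted matrix protein first found as a Wnt target, had 0.486, 0.441 and 0.72 FPKM in the DJ-1 KO OVA libraries, against 0.0655, 0.18 and 0.128 FPKM in the WT OVA libraries and 0.177, 0.14 and 0.24 FPKM in the WT PBS libraries. Every knockout library was above every WT library, and the difference was 0.74 (SE 0.18, adjusted p = 0.0303). Ccn4 averaged 0.125 FPKM in WT OVA and 0.185 FPKM in WT PBS, under the limit of 0.2 FPKM for testing. It was tested only through its mean of 0.549 FPKM in DJ-1 KO OVA, so its order and call are not independent of the filter. Adgra2, which with Reck makes Frizzled respond to Wnt7 ligands in brain vessels, had 5.0, 6.29 and 6.29 FPKM in the DJ-1 KO OVA libraries, against 2.95, 3.55 and 3.16 FPKM in the WT OVA libraries and 4.78, 3.45 and 5.82 FPKM in the WT PBS libraries. WT PBS library 3 lay within the knockout range, and the difference between DJ-1 KO OVA and WT OVA was 0.77 (SE 0.21, adjusted p = 0.0392). Notum, an enzyme that removes the lipid from Wnts and is itself a target of the pathway, had 0.881, 0.334 and 0.577 FPKM in the DJ-1 KO OVA libraries, against 1.73, 2.19 and 1.14 FPKM in the WT OVA libraries and 2.33, 2.16 and 2.11 FPKM in the WT PBS libraries. It was below every WT library in all 3 knockout libraries, at -0.997 (SE 0.24, adjusted p = 0.0285) against WT OVA and -1.33 (SE 0.24, adjusted p = 0.0112) against WT PBS. Each of these 5 calls between DJ-1 KO OVA and WT OVA was lost without DJ1_KO_OVA_267 (adjusted p from 0.1 to 0.168). All except that of Myc were lost with the trend of gene length removed (0.0574 to 0.108). Among 20 alternatives, the call was lost in 12 for Ctnnb1, 10 for Myc, 9 for Adgra2 and 8 for Notum. That of Ccn4 was lost in 8 of the 19 alternatives that tested it.

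**Figure D5:**
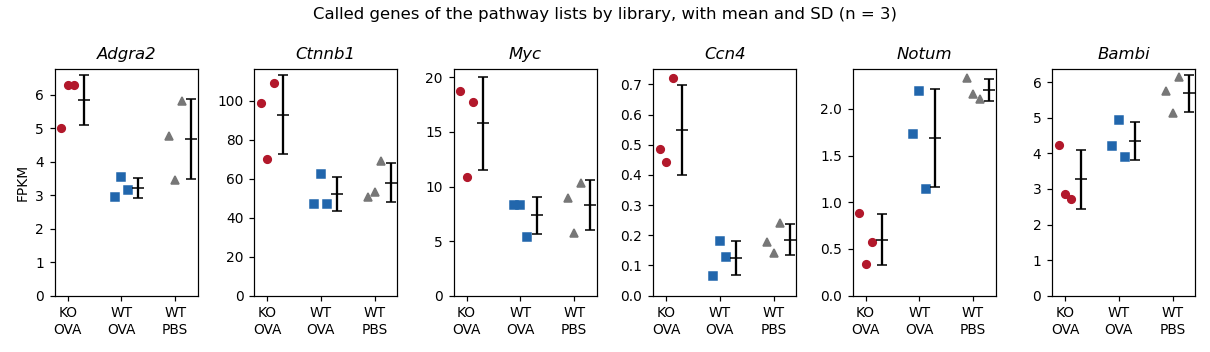
FPKM of the 6 other pathway genes that passed in a comparison, by library, with DJ-1 KO OVA on the left, WT OVA in the middle and WT PBS on the right of each panel; black bars give the mean and SD (n = 3 each). The knockout points of Ctnnb1, Myc and Ccn4 lie above both WT groups and those of Notum, 0.334 to 0.881 FPKM, lie below them. Ccn4 passed the filter for testing only through its DJ-1 KO OVA level.

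By list, 1 of 9 tested co-receptors rose (Adgra2), and 0 of 5 R-spondin and receptor turnover genes passed, with 1 at an unadjusted p below 0.05. Of 17 tested genes of the cytoplasmic relay and destruction complex 1 rose (Ctnnb1). Of 16 tested target genes Myc and Ccn4 rose and Notum fell, and Ccn4 was tested only through its DJ-1 KO OVA level. Axin2, a general target of the pathway chosen after its values were seen, had 3.02, 1.01 and 1.55 FPKM in the DJ-1 KO OVA libraries, against 1.01, 1.53 and 1.07 FPKM in the WT OVA libraries and 1.39, 1.52 and 2.3 FPKM in the WT PBS libraries. The Axin2 libraries overlapped between the groups, at 0.39 (SE 0.30, adjusted p = 0.372) between DJ-1 KO OVA and WT OVA. Of 12 TCF factors and co-factors 0 passed in limma, 3 had an unadjusted p below 0.05, and limma-voom called Tle4 higher. Tcf7 had 272 FPKM in DJ1_KO_OVA_263 and 24.4 and 35.6 FPKM in DJ1_KO_OVA_266 and DJ1_KO_OVA_267, against 16.0 to 17.1 FPKM in WT OVA and 19.1 to 32.4 FPKM in WT PBS. Tcf7 is a T cell gene as well as a pathway member, and DJ1_KO_OVA_263 is the one with immature T cell genes. The part of those cells in the Tcf7 level was not tested. Of 10 planar polarity genes 0 passed and 1 had an unadjusted p below 0.05, and of 4 secretion and release genes Notum fell. In the list of other extracellular inhibitors, 8 genes were tested, Notum fell, and 5 genes including Notum had an unadjusted p below 0.05. Beside these counts by list, 6234 of all 17716 genes had an unadjusted limma p below 0.05 between DJ-1 KO OVA and WT OVA. Notum stands in this list, the target list and the secretion list, so these are 1 call. The 3 genes with the highest mean level in each list were also examined. Apart from Ctnnb1 they did not pass in limma between DJ-1 KO OVA and WT OVA, with adjusted p from 0.0624 to 0.976. The lowest belonged to Trabd2b, a protease that cleaves Wnts, with 5.05, 2.11 and 4.38 FPKM in the DJ-1 KO OVA libraries, against 1.59, 1.96 and 1.61 FPKM in the WT OVA libraries and 2.62, 2.13 and 3.84 FPKM in the WT PBS libraries and a difference of 0.90 (SE 0.29, adjusted p = 0.0624). Its WT PBS libraries overlapped the knockout range, and limma-voom called it. Wls, which carries Wnts to the cell surface, had 12.1, 10.5 and 12.3 FPKM in the DJ-1 KO OVA libraries, against 12.6, 15.3 and 15.2 FPKM in the WT OVA libraries and 10.2, 13.5 and 10.7 FPKM in the WT PBS libraries, with a difference of -0.29 (SE 0.18, adjusted p = 0.271). The R-spondin Rspo1, which raises Frizzled at the cell surface, had 9.43, 6.8 and 4.07 FPKM in the DJ-1 KO OVA libraries, against 7.66, 6.4 and 5.64 FPKM in the WT OVA libraries and 4.73, 2.26 and 8.59 FPKM in the WT PBS libraries, with a difference of -0.02 (SE 0.40, adjusted p = 0.976). The Rspo1 libraries overlapped between the groups, and every DJ-1 KO OVA library of Wls lay below every WT OVA library and within the range of WT PBS.

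The median difference of the 71 genes between DJ-1 KO OVA and WT OVA was 0.28 with 56 positive, against 0 with 50% positive for all genes. Once the trend of gene length was removed it was 0.07 with 43 positive, against 0.07 with 55.6% positive for all genes. Between WT OVA and WT PBS 0 of the 71 passed in limma or limma-voom, and 1 had an unadjusted p below 0.05. Between DJ-1 KO OVA and WT PBS 0 rose in limma and 1, Ccn4, in limma-voom, and Notum and Bambi fell. Bambi, a decoy receptor of the TGF-β family and a Wnt target, had 4.23, 2.87 and 2.72 FPKM in the DJ-1 KO OVA libraries, against 4.2, 4.94 and 3.89 FPKM in the WT OVA libraries and 5.76, 5.15 and 6.16 FPKM in the WT PBS libraries, with a difference of -0.73 (SE 0.20, adjusted p = 0.0484) against WT PBS, and its call was lost in 12 of 20 alternatives.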

How the data were processed

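RNA was measured in 9 libraries, grouped by the treatment in the sample labels. The submitters' processing notes name Trimmomatic, HISAT2, HTSeq and GRCm38.p6, without versions or the step each served. The deposited table holds FPKM for 55851 genes, per the file headers. Multiplied by gene length these were whole multiples of a single step for 100% of values (tolerance 0.01 reads), which gave the reads per gene; the library size used by the authors was 0.89 to 1.21 times the recovered total. Values were taken as log2(FPKM + 0.5), with a pseudocount of 0.5, for the 17716 genes with a mean of at least 0.2 FPKM, and fitted in limma 3.58.1 (R 4.3.3, limma-trend) with 3 group means, 6 residual degrees of freedom and no covariates. A gene passed with a Benjamini-Hochberg adjusted p below 0.05 over all 17716 genes, and all adjusted p-values come from that fit unless an alternative is named. Differences on this scale understate changes of low genes. Values are given by library for members called or with a mean of at least 1 FPKM in a group, and for called pathway genes. Of the uncalled pathway genes among the 3 highest of a list, only some are given by library. Start and end of all 37 members were those of GENCODE M21, and 9 members overlap a gene on the opposite strand. The members and lists were chosen with earlier results of these data known. Alternatives changed the pseudocount, filter, scaling, libraries and test, 20 settings in all.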

Additional observations from a re-analysis of the deposited data

How the results depend on the processing

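No paired analysis was possible because the groups share no replicate numbers. Fits without 1 library leave 2 in its group and rest on the spread of the other groups. Counts of called genes are given as higher, then lower. For members in DJ-1 KO OVA against WT OVA (2 and 1), the range over fits without 1 library was 0 to 7 and 0 to 1. The 7 came without DJ1_KO_OVA_266, and 0 higher were left without DJ1_KO_OVA_267 or WT OVA library 6 or 9. Calls over all genes also moved, to 2722 and 2971 without DJ1_KO_OVA_266 and 125 and 161 without DJ1_KO_OVA_267. Without WT OVA library 6 they were 138 and 310, and without library 9 they were 159 and 317. With all libraries they were 1051 and 1459. A filter at 1 FPKM gave 4 higher, limma-voom on recovered reads 4, equal FPKM sums 5, and no filter 1 and 0. Over all genes, the filter at 1 FPKM gave 1118 and 1593, and no filter gave 274 and 371. Removing the trend of gene length left 0 lower, and leaving out DJ1_KO_OVA_263 with WT OVA library 6 left 0 and 0. Both alternatives were chosen after seeing the data. Over all genes the first gave 1199 and 866, and the second 259 and 227. For members against WT PBS (2 and 1) the ranges were 0 to 4 and 0 to 1. Over all genes, calls against WT PBS were 721 and 792 with all libraries and 1902 and 1994 without DJ1_KO_OVA_266. They were 257 and 229 without DJ1_KO_OVA_267, 199 and 240 without WT PBS library 1 and 229 and 311 without library 2. No filter gave 0 and 0, the 2 groups alone 1 higher, the length trend 0 lower, and the pair of libraries left out 1 and 0. Over all genes, no filter gave 327 and 342 and the 2 groups alone 358 and 431. The length trend gave 1028 and 740, and the pair left out 747 and 482. For WT OVA against WT PBS, members and pathway genes stayed at 0 in all 20 alternatives. For the other pathway genes between the challenged groups (4 and 1), the ranges were 0 to 21 and 0 to 2. A filter at 1 FPKM gave 7 higher, a filter at 0.05 FPKM 1, no filter 1 and 0 and equal sums 22 and 0. The 2 groups alone gave 1 and 0, limma-voom 9, the length trend 2, and the pair of libraries left out 0 and 0. Over all genes, the filter at 0.05 FPKM gave 751 and 1081, and the 2 groups alone 477 and 855. Against WT PBS (0 and 2) the ranges were 0 to 10 and 0 to 2. A filter at 0.05 FPKM gave 1 and 1, no filter 1 lower, equal sums 0 lower, the 2 groups alone 1 lower, and limma-voom and the length trend 1 higher each. Over all genes, the filter at 0.05 FPKM gave 634 and 674, equal sums 968 and 432 and limma-voom 869 and 894. The cause of these changes was not tested. Equal sums moved the median of all genes by 0.46 between the challenged groups, by -0.22 between the WT groups and by 0.24 for knockout against WT PBS, and changed the calls over all genes between the challenged groups to 4432 higher and 602 lower, against 1051 and 1459 on the deposited values; limma-voom called 1407 and 1786. The 3 called members kept their sign in all 20 alternatives in both comparisons. Members without a call between the challenged groups changed sign in 27 of 434 values. In the libraries where Wnt6 lay below 1 FPKM it had 7 to 43 reads, which shows how few reads such a level rests on.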
